A study of Mus musculus with 13 samples.

Results

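The H3K27me3 landscape of the HoxA homeobox cluster was examined in mouse embryonic fibroblasts, a connective tissue cell type in culture, that carried either of 2 mutant forms of histone H3. One group of cells stably expressed H3.1K27M and the other H3.3K27M, each introduced by lentivirus. In both forms lysine 27 is replaced by methionine; H3.1 is the histone H3 form laid down mainly during DNA replication and H3.3 the form laid down throughout the cell cycle. The series holds 13 samples in 11 groups, and H3K27me3 was profiled in 2 replicate samples of each mutant by chromatin immunoprecipitation of chromatin cut with micrococcal nuclease. Each mutant is represented by 1 deposited peak list, so there was no spread between replicates, no comparison below carries a p-value, and every difference is one between these lists. Samples with K27R, an empty vector, or an EZH2 or FLAG precipitation were not analysed here, and no list of cells without a mutant histone was set beside the HoxA values. The lists hold no expression values, so the labelled cell type could not be checked against its markers, and no label says whether the cells were a clone or a pool.

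The HoxA cluster was taken as chr6:52110000-52230000 on the mouse build mm9, a window of 120 kb that runs from Hoxa2 to Hoxa13, and its members are the peaks of either list that overlap this window by at least 1 bp. They were 2 of the 2245 peaks in both lists: 1 of the 1053 peaks of the H3.1K27M list and 1 of the 1192 peaks of the H3.3K27M list. The 10 genes of the window are, in order, Hoxa2, Hoxa3, Hoxa4, Hoxa5, Hoxa6, Hoxa7, Hoxa9, Hoxa10, Hoxa11 and Hoxa13. In the RefSeq gene table the protein-coding genes past Hoxa13 are Evx1 and then Hibadh. That table describes the later build GRCm38, and positions were not carried over between builds, so a peak is placed within the window by its distance from the Hoxa2 end and not assigned to a single gene.

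Hox genes encode homeodomain transcription factors that give cells their position along the body axis, and their order on the chromosome follows the order in which they are used along that axis. Hoxa2 acts in the hindbrain and the branchial arches, Hoxa3 in the thymus and parathyroid, and Hoxa5 in the lung and the cervicothoracic skeleton. Hoxa9 acts in blood progenitors, Hoxa10 and Hoxa11 in the uterus and the limb, and Hoxa13 in the digits and the urogenital tract. Hox clusters are textbook targets of Polycomb repressive complex 2 (PRC2), whose catalytic subunit EZH2 places H3K27me3 on inactive parts of the cluster, while the active part is free of the mark. Histone H3 with K27M inhibits PRC2, and H3K27me3 then persists mainly at sites rich in CpG dinucleotides, where PRC2 is recruited.

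To show how the members differ in CpG, promoters of 4 Hoxa genes are given, with every CpG in capitals. Hoxa2 and Hoxa13 were shown because they are the first and last genes of the window. Hoxa9 and Hoxa5 were shown because they had the lowest and the highest ratio of observed to expected CpG among the promoters matched. Each run holds the 250 bases before the gene's start, read 5′ to 3′ on the gene's own strand, from RefSeq on build GRCm38.p6. These coordinates belong to that build and cannot be set against the mm9 positions of the peaks.
Hoxa2 (chr6:52164832-52165081, minus strand): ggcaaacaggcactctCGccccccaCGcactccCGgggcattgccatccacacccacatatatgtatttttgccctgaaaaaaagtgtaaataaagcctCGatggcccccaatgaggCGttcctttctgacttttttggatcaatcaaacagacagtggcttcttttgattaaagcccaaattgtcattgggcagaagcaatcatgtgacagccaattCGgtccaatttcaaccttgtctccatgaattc
Hoxa5 (chr6:52204588-52204837, minus strand): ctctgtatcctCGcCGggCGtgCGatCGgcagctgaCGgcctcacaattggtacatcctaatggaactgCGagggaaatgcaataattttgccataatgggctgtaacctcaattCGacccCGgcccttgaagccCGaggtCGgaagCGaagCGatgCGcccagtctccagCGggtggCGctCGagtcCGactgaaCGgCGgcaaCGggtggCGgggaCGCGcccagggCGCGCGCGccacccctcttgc
Hoxa9 (chr6:52227371-52227620, minus strand): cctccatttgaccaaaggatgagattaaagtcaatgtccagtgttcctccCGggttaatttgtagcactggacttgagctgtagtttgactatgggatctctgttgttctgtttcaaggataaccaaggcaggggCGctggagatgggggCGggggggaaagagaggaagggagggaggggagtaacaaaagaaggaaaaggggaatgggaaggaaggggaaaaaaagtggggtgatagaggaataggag
Hoxa13 (chr6:52260881-52261130, minus strand): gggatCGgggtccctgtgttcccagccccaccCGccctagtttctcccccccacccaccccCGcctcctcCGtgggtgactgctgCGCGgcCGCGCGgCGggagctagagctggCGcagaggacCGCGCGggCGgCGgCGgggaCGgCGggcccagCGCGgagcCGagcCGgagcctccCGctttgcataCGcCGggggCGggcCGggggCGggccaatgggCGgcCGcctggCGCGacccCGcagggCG

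The promoters of the Hoxa genes ranged from poor to very rich in CpG. RefSeq promoters of 300 bases (250 before the start and 50 after it) were matched for 9 of the 10 genes by symbol, with 2 for Hoxa10 and none for Hoxa4, so 10 promoters were described. Their median ratio of observed to expected CpG was 0.722, against 0.384 over all 32851 promoters in the table, and their median number of CpG was 17.5 against 7. Counting a promoter as rich in CpG at a ratio of at least 0.6 and a GC content of at least 50%, 6 of the 10 qualified, against 33.5% of all promoters. These 6 belong to Hoxa3, Hoxa5, Hoxa6, Hoxa10 (1 of its 2), Hoxa11 and Hoxa13.

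At the Hoxa13 end of the window, the Hoxa13 promoter held 45 CpG at 81% GC and a ratio of 0.918, and 98.1% of all promoters held fewer CpG. The Hoxa11 promoter had 15 CpG and a ratio of 0.787. For Hoxa10 the 2 promoters differed, with 21 CpG (ratio 0.853) and 12 CpG (ratio 0.596). Hoxa9 had the fewest, 4 CpG at a ratio of 0.28. The next gene towards Hoxa2, Hoxa7, held 9 CpG at a ratio of 0.405. The middle of the cluster was again rich, with 26 CpG for Hoxa6 (ratio 0.923) and 29 for Hoxa5 (ratio 1.02). Hoxa3 had 20 CpG at a ratio of 0.657. Hoxa2, at the other end, had 9 CpG at 45.7% GC and a ratio of 0.589, short of both limits. CpG-rich promoters were thus spread from Hoxa3 to Hoxa13, with the CpG-poor Hoxa7 and Hoxa9 promoters among them. Within that span the Hoxa10 promoter with 12 CpG also fell short of the limit, and Hoxa4 was not matched.

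**Figure D1:**
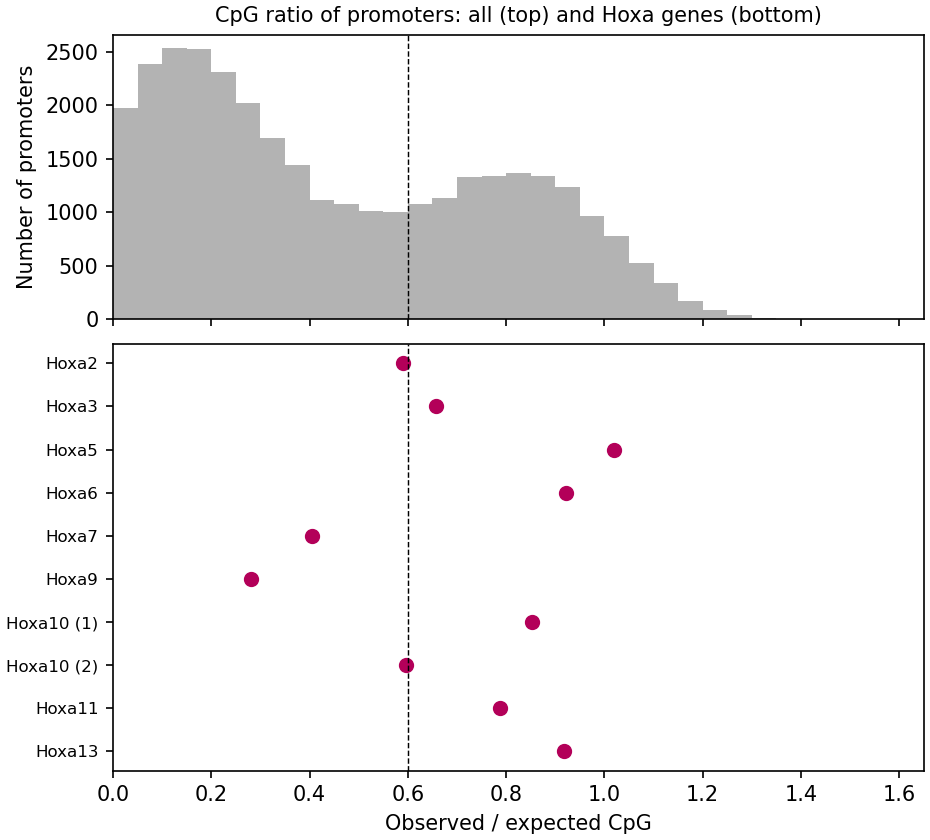
Ratio of observed to expected CpG in promoters of 300 bases. The grey bars count all 32851 promoters in the RefSeq table (y axis), the points are the 10 promoters of 9 Hoxa genes in chromosomal order, and the dashed line marks the limit of 0.6. The Hoxa points run from 0.28 (Hoxa9) to 1.02 (Hoxa5).

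Beside CpG, 2 short promoter motifs were searched. The letters TATAAA, searched on both strands, were found in 1 of the 10 promoters (a Hoxa10 promoter), against 13.6% of all promoters of the same length. The letters CCAAT, also on both strands, were found in 5 of 10 (Hoxa2, Hoxa5, Hoxa6, 1 of Hoxa10, and Hoxa13) against 37.4% of all. These matches describe the letters only. All 10 promoters lay on the minus strand, so the cluster is read from the Hoxa13 end towards the Hoxa2 end.

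Within the HoxA window H3K27me3 was called as a single broad domain on the Hoxa13 side in both mutants, and the Hoxa2 side was free of peaks. In the H3.1K27M list the domain ran from 52175601 to 52219799 (44.2 kb). In the H3.3K27M list it ran from 52182001 to 52220599 (38.6 kb). Measured from the Hoxa2 end of the window, the first 65.6 kb held no H3.1K27M peak and the first 72 kb no H3.3K27M peak, that is 54.7% and 60% of the window. At the Hoxa13 end the last 10.2 kb and 9.4 kb lay outside the peaks. On the later build GRCm38 the starts of Hoxa2 and Hoxa13 lie closer together than the window is long. The stretches free of peaks at its ends can therefore include sequence beyond these starts. Whether the start of Hoxa2 or Hoxa13 lay in a peak was not tested. The domain lay wholly inside the window, and no peak crossed either of its edges.

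In steps of 20 kb from the Hoxa2 end, the first 3 steps, up to 60 kb, held no peak of either list. The step from 60 to 80 kb was 72% covered in the H3.1K27M list and 40% in the H3.3K27M list. The step from 80 to 100 kb was covered in full in both. The last step, from 100 to 120 kb, was 49% and 53% covered. The lists thus differed mainly in the step where the domain begins.

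**Figure D2:**
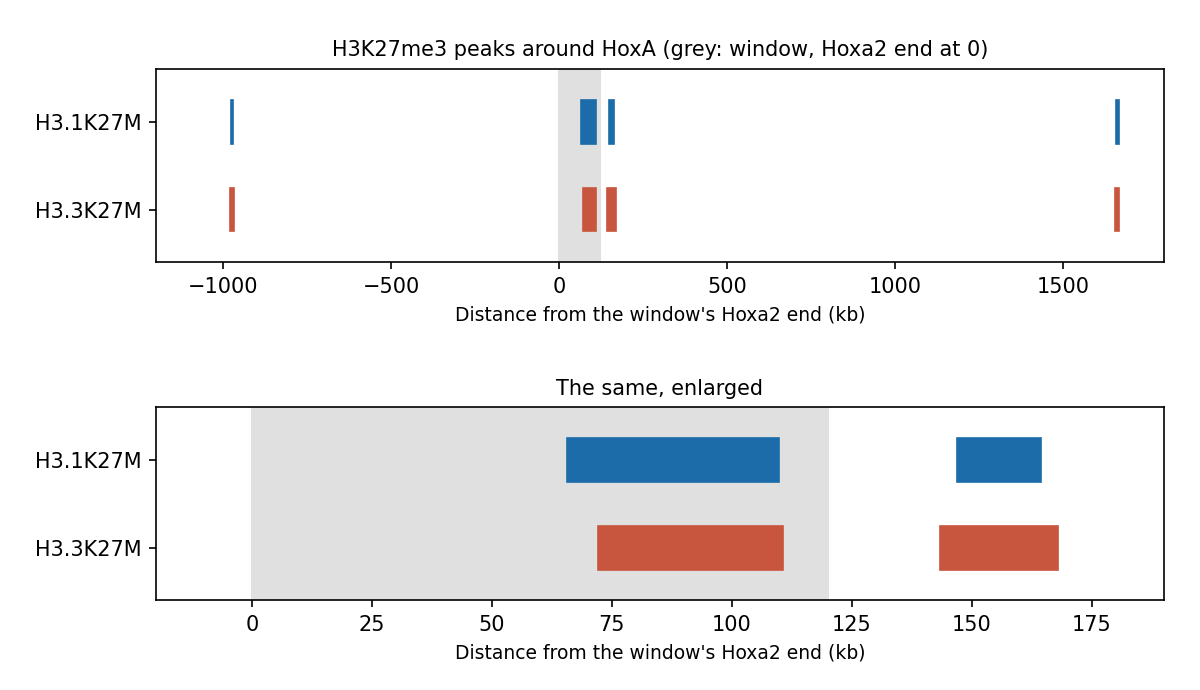
H3K27me3 peaks of the H3.1K27M list (blue) and the H3.3K27M list (red) as bars against the distance in kb from the Hoxa2 end of the window (grey, 120 kb), over about 3 Mb in the upper panel and enlarged in the lower panel. Both lists have 1 peak inside the window, on its Hoxa13 side, and 1 more past the Hoxa13 end; the next peaks lie about 1 Mb and 1.5 Mb away.

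The domains of the 2 mutants coincided over most of their length. They shared 37.8 kb, from 52182001 to 52219799, which was 85.5% of the H3.1K27M domain and 97.9% of the H3.3K27M domain. Of the 45 kb covered by either list, 84% was covered by both. Over all peaks of the lists the same quantities were 84.9%, 62.6% and 56.3%. Having a partner was common in these lists: 81.2% of all H3.1K27M peaks and 70.3% of all H3.3K27M peaks overlapped a peak of the other list, so the presence of a partner for the HoxA peaks is near what most peaks show. HoxA stood nearer to the lists as a whole in the share of its H3.1K27M domain than in the share of its H3.3K27M domain.

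The domain was wider in the H3.1K27M list, and its edge on the Hoxa2 side accounted for the difference. H3.1K27M alone covered 6.4 kb there, from 52175601 to 52182000. H3.3K27M alone covered 0.8 kb on the other side, from 52219800 to 52220599. Divided by the H3.1K27M width, the H3.3K27M width gave a ratio of 0.873, or -0.20 on the log2 scale. Most shared regions went the other way: of the 807 regions with exactly 1 peak of each list, the H3.1K27M peak was the wider one in 157 (19.5%) and the H3.3K27M peak in 627, with a median log2 ratio of 0.33 and an SD of 0.60 over regions. The HoxA ratio had 13.6% of the regions below it and lay within 1 SD of that median. That SD is over regions of all widths, most of them far narrower than HoxA. Among the 114 regions with 1 peak of each list that were at least 20 kb wide, the median log2 ratio was 0.24. H3.1K27M was wider in 17 of them, HoxA included, and H3.3K27M in 96.

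**Figure D3:**
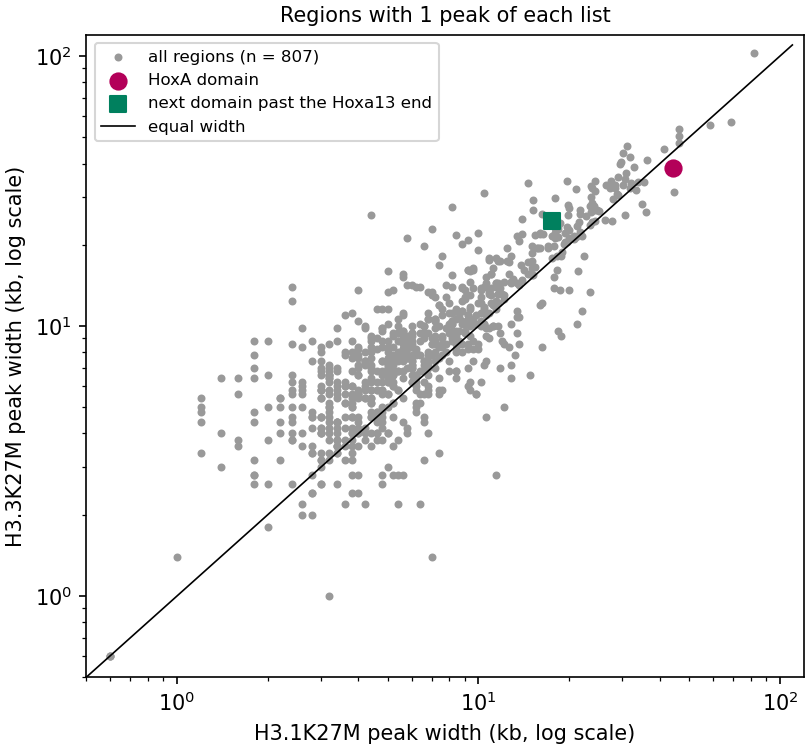
Width of the H3.3K27M peak against that of the H3.1K27M peak (kb, both axes logarithmic) in the 807 regions with 1 peak of each list (grey). The line marks equal width; HoxA (circle, 44.2 and 38.6 kb) lies below it and the next domain past the Hoxa13 end (square, 17.6 and 24.6 kb) above it.

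The 2 edges of the HoxA domain differed in how closely the lists placed them. The edge on the Hoxa13 side was 0.8 kb apart, 4 steps of the 200 bp grid on which the peaks are given, and equal to the median over the 807 regions, where H3.3K27M reached 0.8 kb further on the left and 0.8 kb further on the right. The edge on the Hoxa2 side was 6.4 kb apart in the other direction. At 4 of the 807 left edges, HoxA included, H3.1K27M reached at least that far beyond H3.3K27M, and at 11 of all 1614 edges. Each of those 4 regions was at least 20 kb wide. A domain shifted as at HoxA, with H3.1K27M reaching further left and H3.3K27M further right, was seen in 67 of the 807 regions (8.3%), while H3.3K27M reached further on both sides in 495 (61.3%).

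**Figure D4:**
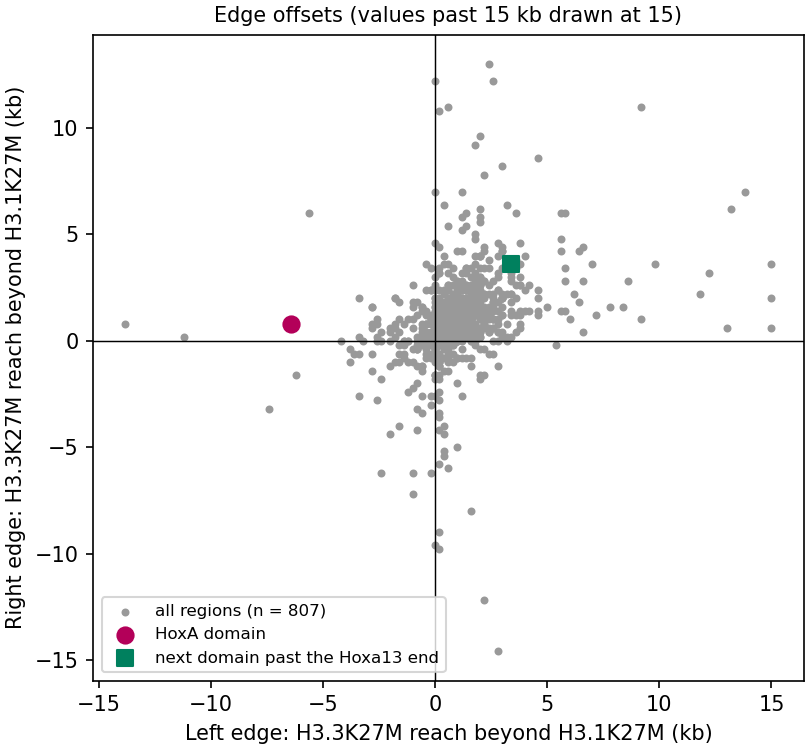
Offset in kb between the lists at the left edge (x axis) and the right edge (y axis), above 0 where H3.3K27M reached further, in the 807 regions with 1 peak of each list. HoxA (circle) lies at -6.4 and 0.8 kb, and the next domain past the Hoxa13 end (square) at 3.4 and 3.6 kb.

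Past the Hoxa13 end of the window, outside the cluster as defined, lay a second shared domain in which H3.3K27M was the wider list. It ran from 52256801 to 52274399 in H3.1K27M cells (17.6 kb) and from 52253401 to 52277999 in H3.3K27M cells (24.6 kb). The H3.3K27M peak reached 3.4 kb further on the left and 3.6 kb further on the right, and the ratio of widths was 1.40, a log2 ratio of 0.48. The stretch free of peaks between the HoxA domain and this one measured 37 kb in the H3.1K27M list and 32.8 kb in the H3.3K27M list. Added together, the 2 domains covered 61.8 kb and 63.2 kb, a ratio of 1.02 and a log2 ratio of 0.03. The direction of the HoxA width difference is therefore that of the domain inside the window and turns when the window is widened by 50 kb on each side. Opposite directions in neighbouring domains were seen in 18 of 81 such pairs of regions at most 50 kb apart (22.2%).

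The pair of domains stood alone on this part of chromosome 6. On the Hoxa2 side the nearest peak ended at 51138999 in the H3.1K27M list and at 51142399 in the H3.3K27M list, more than 1 Mb before the HoxA domain (1037 kb and 1040 kb). On the other side the next peak after the second domain began at 53767201 and 53764401, 1493 kb and 1486 kb further on. Between these outer peaks, over 2.63 Mb in H3.1K27M cells and 2.62 Mb in H3.3K27M cells, each list held the 2 domains and nothing else. The running numbers of the peaks are unbroken here, from 829 to 832 and from 953 to 956, so no number was left unused at the cluster, whereas 26 and 55 numbers are unused in the lists as a whole.

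By width the HoxA domain was among the broadest of either list. In the H3.1K27M list it ranked 10 of 1053 peaks, 7.89 times the median width of 5.6 kb, and it was the widest of the 52 peaks of chromosome 6. In the H3.3K27M list it ranked 23 of 1192, 5.36 times the median of 7.2 kb, and was second to a peak of 42.4 kb among the 64 of that chromosome. The second domain ranked 117 and 85. HoxA thus had the lower rank number in the H3.1K27M list and the second domain in the H3.3K27M list, but ranks in lists of different length show no change.

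Coverage of the whole window counted the same peaks again, since each lay wholly inside it, so it is no separate evidence of breadth. The genome was divided into 21981 windows of the same length, of which 4.31% held any H3.1K27M peak and 5.05% any H3.3K27M peak. Windows were laid outward from the HoxA window on chromosome 6 and from the start of each other chromosome. They could therefore cut through a domain, whereas the HoxA window held its domain whole. The HoxA window was 36.8% covered in the H3.1K27M list, rank 16, and 32.2% in the H3.3K27M list, rank 36. The most covered windows reached 82.2 kb and 102.4 kb. Windows with any peak had a median of 5.6 kb and 7.2 kb covered.

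**Figure D5:**
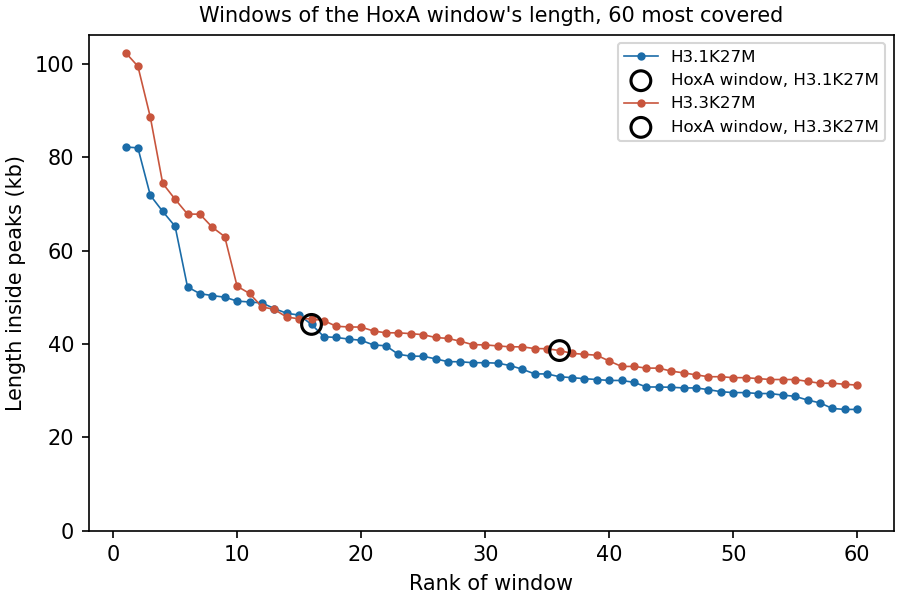
Length inside H3K27me3 peaks (kb) of the 60 most covered windows of the HoxA window's length in each list, by rank. The HoxA window (rings) stands at rank 16 with 44.2 kb in the H3.1K27M list and at rank 36 with 38.6 kb in the H3.3K27M list.

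Among shared regions HoxA ranked 15 of 831 by the span from its first to its last base, 45 kb. Of the 14 broader regions, 9 were covered more in the H3.3K27M list and 5 in the H3.1K27M list, with ratios from 0.707 to 1.62, so HoxA's 0.873 lay inside their range. Directly above it in rank was a region on chromosome 11 from 98158801 to 98203999 (45.2 kb). There H3.1K27M also reached further on the left, by 13.8 kb, and H3.3K27M by 0.8 kb on the right, and the ratio was 0.707. The next in rank, on chromosome 14 from 63846601 to 63891999 (45.4 kb), had H3.3K27M wider on both sides and a ratio of 1.10. A region on chromosome 4 from 139362001 to 139412399 (50.4 kb), with 2 H3.1K27M peaks against 1 H3.3K27M peak, also had H3.1K27M reaching further on the left, by 5.4 kb, with the right edges equal and a ratio of 0.945. The region on chromosome 2 from 74481601 to 74553199 was also wider in H3.1K27M cells (ratio 0.829), but there the difference lay on its right edge, where H3.1K27M reached 14.6 kb further. These ratios come without replicates, and the depth of the libraries behind the lists is unknown.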

How the data were processed

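Peak lists for H3K27me3 in mouse embryonic fibroblasts expressing H3.1K27M or H3.3K27M were used, 1 for each mutant; replicate 2 of each mutant points to the list of replicate 1, and no label says whether reads were pooled. The submitters' processing notes name Bowtie 1.0.0, deepTools and the build mm9. How peaks were called, at which threshold and with which input was not given in the sources used here. Positions and widths were deposited in bp on a 200 bp grid, without height, fold or p-value. Since greater depth or a looser threshold widens peaks, widths say where the mark was called and not how much of it there was.

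Coordinates are printed 1-based. Peaks overlapping by at least 1 bp were joined into regions, and chromosome lengths of mm9 were taken from GenomeInfoDb 1.38.1. Promoter sequences and gene order came from RefSeq tables on GRCm38; start sites were not placed in peaks, since that needs an mm9 annotation. The expected number of CpG is the product of the C and G counts over the length. The members and lists were chosen with earlier results of these data known. Genes named are the members and the neighbours past Hoxa13; promoters printed are those of the first and last member and of the highest and lowest CpG ratio. Regions on chromosomes 2, 4, 11 and 14 were picked after their values were seen. Python 3.11.15, pandas 2.3.3 and networkx 3.6.1 were used, and the code was tested on simulated data.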

Additional observations from a re-analysis of the deposited data

How the results depend on the processing

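No paired analysis was possible because there was 1 peak list per mutant, which also leaves no replicate to omit. Widening the window by 50 kb on each side took in the domain past the Hoxa13 end: each list then held 2 peaks, the covered length rose to 61.8 kb in the H3.1K27M list and 63.2 kb in the H3.3K27M list, and the log2 ratio turned from -0.20 to 0.032. The other 22 of 27 values under alternatives moved little or not at all. They covered the stricter width limit, merging of peaks under 5 kb apart, whole in place of clipped peaks, a reciprocal overlap of 50%, shifted windows and promoters without the bases after the start. The HoxA lengths, width ratio and peak counts could not change under the width limit, merging, whole peaks or reciprocal overlap. Each HoxA peak was wider than its list's median, lay wholly inside the window and stood more than 5 kb from the next peak. It also shared more than 50% of its length with its partner. These unchanged values therefore say nothing about how firm the width difference is. The rank of the HoxA window lay between 14 and 16 in the H3.1K27M list and between 30 and 36 in the H3.3K27M list. For lengths, a value counted as moved when it left the exact 95% binomial interval over 200 bp steps, which treats steps as independent. The placing of start sites in peaks was not run, since it needs gene positions on mm9. Unknown depth limits every statement that a stretch held no peak.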
